A study of Mus musculus with 11 samples.

Results

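The voltage-gated calcium and sodium channel genes were followed in whole cochleae of mice with and without ATF6, an ER transmembrane protein whose released fragment acts as a transcription factor of the unfolded protein response. They were chosen by symbol (*Cacna1a* to *Cacna1s*, *Cacna2d1* to *Cacna2d4*, *Cacnb1* to *Cacnb4*, *Cacng1* to *Cacng8*, and *Scn* followed by a number and the letter a or b), which gave 40 of the 18667 genes in the expression tables, 26 of calcium and 14 of sodium channels. RNA came from 2-month-old mice on the C57BL/6J background, a strain whose *Cdh23* ahl allele predisposes both genotypes to hearing loss at later ages. The 5 *Atf6*+/+ libraries are labelled WT1 to WT5. The 6 *Atf6*-/- libraries, labelled ATF6KO1 to ATF6KO6, came from mice with a premature stop codon in both *Atf6* alleles and no ATF6 protein. Each library is 1 individual cochlea, and the sources used here do not say whether any came from the same animal. Levels are in FPKM, a unit that divides the fragments of a gene by its length and by the size of the library, and so can be compared between genes. Read counts were not analysed here, and the sampling error of each low value is therefore unknown. The FPKM values of a library summed to between 474616 and 537926 in *Atf6*+/+ and between 462005 and 502419 in *Atf6*-/-.

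A voltage-gated calcium channel is built around a pore subunit that opens on depolarization, with an extracellular α2δ subunit and a cytoplasmic β subunit that set how many channels reach the membrane and how they gate. Inner hair cells release glutamate when calcium enters through L-type channels with the *Cacna1d* pore. Spiral ganglion neurons carry the signal to the brain as sodium spikes through voltage-gated sodium channels. The pore subunits of these associate with single-pass β subunits. Most products of the *Cacng* genes are better known as transmembrane partners of AMPA-type glutamate receptors (TARPs) than as calcium channel subunits.

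*Atf6* itself was measured first, as a check of the labels. It was at 10.4, 9.99, 10.6, 8.39 and 8.25 FPKM in WT1 to WT5 and from 3.83 to 4.59 FPKM (median 4.22) in the 6 *Atf6*-/- libraries. The groups did not overlap, and the mean fell from 9.52 ± 1.11 (SD, n = 5) to 4.26 ± 0.285 FPKM (SD, n = 6; log2 fold change -1.13, limma adjusted p = 5.17e-05, exact permutation p = 0.00216, the smallest that 462 assignments can give). Every library had the *Atf6* level that its label implies. Fold changes are from log2(FPKM + 0.1), and a gene is said to pass the unadjusted rule when its 2-sided limma p was no higher than 0.05 and its log2 fold change was beyond 0.05 in either direction. Of all 16169 genes tested, 9.85% passed it with all libraries.

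WT3 and WT4 stood apart from the other libraries in cell type markers. For the 6 genes of the somatosensory neuron list, the summed level was 17.9, 10.2, 27.8, 113 and 12.9 FPKM in WT1 to WT5 and 8.25, 12.9, 17.7, 8.70, 6.03 and 8.14 FPKM in ATF6KO1 to ATF6KO6. WT4 was the highest in 5 of the 6 markers, among them the neuropeptide gene *Calca* at 62.8 FPKM against at most 1.49 elsewhere, and the heat receptor gene *Trpv1* at 2.84 against at most 0.2. *Mrgprd*, a marker of nonpeptidergic nociceptors, was at 0 in WT1, WT2, WT5 and every *Atf6*-/- library. It was at 0.03 FPKM in WT3 and 1.34 FPKM in WT4. The most abundant gene of the list was *Tac1*, which passed the unadjusted rule together with *P2rx3*, both lower in *Atf6*-/-. Without WT4, 1 of the 5 markers then tested passed it, *Tac1*, beside 8.45% of all genes in that fit.

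Blood and marrow markers varied between libraries of both genotypes. The neutrophil list summed to 495, 563, 3176, 1262 and 256 FPKM in WT1 to WT5 and to 92.5, 345, 180.5, 1199, 147 and 347 in ATF6KO1 to ATF6KO6, led by *S100a9*. The B cell list, led by *Cd79a*, summed to 10.1, 9.25, 31.3, 33.5 and 15.7 in *Atf6*+/+ and to 7.27, 9.23, 11.3, 10.4, 8.84 and 14.3 in *Atf6*-/-. WT3 and WT4 were the highest in B cell markers, and WT3 was the highest in neutrophil markers. The erythroid list, led by *Hba-a1*, summed to 10396, 3186, 9743, 9085 and 30282 FPKM in *Atf6*+/+ and to 1869, 2528, 3354, 3096, 4207 and 6106 in *Atf6*-/-, with WT5 the highest. By the unadjusted rule 4 of 8 neutrophil, 3 of 6 B cell and 5 of 6 erythroid genes were lower in *Atf6*-/-, beside 5.37% of all genes lower by the rule. Without WT4 the rule was passed by 1 of 8 neutrophil, 1 of 6 B cell and 5 of 6 erythroid genes, beside 8.45% of all genes in either direction.

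With all libraries, hair cell markers went the other way, with 9 of 9 estimates above 0. Their 9 genes summed to 151, 119, 57.2, 56.3 and 100.4 FPKM in WT1 to WT5 and to 179, 90.6, 144, 132, 171 and 159.6 in ATF6KO1 to ATF6KO6, so that WT3 and WT4 were the lowest of all. The list was led by *Ocm*, which encodes oncomodulin of outer hair cells, and *Ocm* and *Slc26a5*, the prestin gene, were higher in *Atf6*-/- by the rule, beside 4.48% of all genes higher by it. Without WT4, 1 of the 9 passed it, beside 8.45% of all genes in that fit. With a bone marrow score (the mean log2 level of the neutrophil, B cell and erythroid lists) as a covariate, 0 of the 9 passed it, beside 5.37% of all genes in that fit. In that fit 3 of the 9 estimates were above 0. Without WT4 it was 9, and without both WT3 and WT4, a choice made after seeing the data, it was 4. In whole cochleae, fewer cells of a type and less RNA per cell cannot be told apart. The bone marrow score itself followed genotype closely. Of the *Atf6*+/+ libraries, WT2 alone (3.46) scored below some *Atf6*-/- libraries, ATF6KO4 (3.77) and ATF6KO6 (3.86). A marker or channel result lost with this covariate therefore cannot be assigned to marrow rather than to genotype. The part of these markers in the channel results was not tested, other than by the libraries left out and, with that limit, by the covariate.

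Of the other lists, the neuron list led by *Snap25* had 2 of 10 genes past the rule, *Syt1* and *Stmn2*. Both were lower in *Atf6*-/-, beside 5.37% of all genes lower by the rule. The count was 0 of 10 without WT4 (8.45% of all genes) and 0 of 10 with the bone marrow score (5.37% of all genes in that fit). The neuron list summed to 4140.3 ± 395 FPKM in *Atf6*+/+ (SD, n = 5) and 3889 ± 316 in *Atf6*-/- (SD, n = 6). The Schwann cell list had 1 of 7 genes past the rule, *Mag*, and the oligodendrocyte list led by *Mobp* had 1 of 6, *Mobp* itself. Both were higher in *Atf6*-/-, beside 4.48% of all genes higher by the rule. With the bone marrow score 0 genes of either list passed it, and without WT4 the oligodendrocyte list had 2 of 6, beside 8.45% of all genes. In the astrocyte list (6 genes, led by *Gjb6*) and the vascular smooth muscle list (5 genes, led by *Rgs5*), 0 passed the unadjusted rule. *Gjb6* was the highest of the 11 libraries in ATF6KO5 (253 FPKM), where *Gfap* of the same list was the lowest (103 FPKM). The list therefore does not follow astrocytes alone. Of the 7 macrophage genes led by *C1qb* and the 11 tested skeletal muscle genes led by *Mb*, 0 passed the unadjusted rule. The muscle list summed to 62.9 FPKM in ATF6KO3 and to between 3.48 and 9.42 in the other libraries.

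Calcium and sodium channel mRNA passed the test between the genotypes in few genes. Of the 40 genes, 34 had a mean of at least 0.1 FPKM and were tested. In *Atf6*-/- cochleae 2 sodium channel genes fell, *Scn3b* and *Scn7a*, and 1 gene of the γ family rose, *Cacng4*, by the unadjusted limma rule. That is 3 of 34 genes, or 8.82%, beside 9.85% of all 16169 genes tested (4.48% higher and 5.37% lower). The share is near that of all genes and is no result about channels as a group. At an adjusted limma p under 0.05 there were 0 of 34, beside 3 of 34 by the unadjusted rule and 0.068% of all genes at the adjusted threshold, and the smallest adjusted p among the 34 was 0.391. No gene of the 34 had groups without overlap, against 1.25% of all genes. The median log2 fold change of the 34 was -0.05, beside -0.01 over all genes tested. It was 0.01 for 21 calcium channel genes and -0.24 for 13 sodium channel genes. The 13 include *Scn10a* and *Scn11a*, which were tested through their level in WT4 alone, so the filter set their direction and the contrast shows nothing about the groups. The sodium channel median was -0.12 over 11 genes without WT4, -0.035 with the bone marrow score and -0.028 over 11 genes without both WT3 and WT4, an alternative chosen after seeing the data. Of the 34, 13 had an estimate above 0 and 21 below. The 21 include *Scn10a* and *Scn11a*, and the 13 include *Cacng1*, which was tested through its level in ATF6KO3 alone. The split was 20 above and 14 below with the bone marrow score, and 16 and 16 without both WT3 and WT4. When each library was rescaled to a common sum the split was 17 and 17, and over all genes the count past the rule moved from 724 higher and 868 lower to 1389 higher and 439 lower.

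The count of genes past the unadjusted rule moved with single libraries. It was 5 of 32 without WT4 (*Cacna2d1*, *Cacnb1*, *Scn7a* and *Scn3b* among them), or 15.6% beside 8.45% of all genes in that fit. Without ATF6KO2 it was 5 of 34, where *Cacna2d3* and *Cacng2* joined the 3, or 14.7% beside 11.1% of all genes. Without WT5 it was 8 of 34, where *Cacna1h*, *Cacna2d3*, *Cacng2*, *Scn3a* and *Scn9a* joined the 3, or 23.5% beside 10.6%. It was 4 of 34 without WT1 (11.8% beside 11.5%), 4 of 34 without WT2 (11.8% beside 10.9%) and 4 of 33 without ATF6KO3 (12.1% beside 10.4%), where *Cacna1d* joined the 3. *Scn3b* alone passed with the bone marrow score as a covariate (2.94% beside 5.37% of all genes) and without both WT3 and WT4 (3.12% beside 6.21%).

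**Figure D1:**
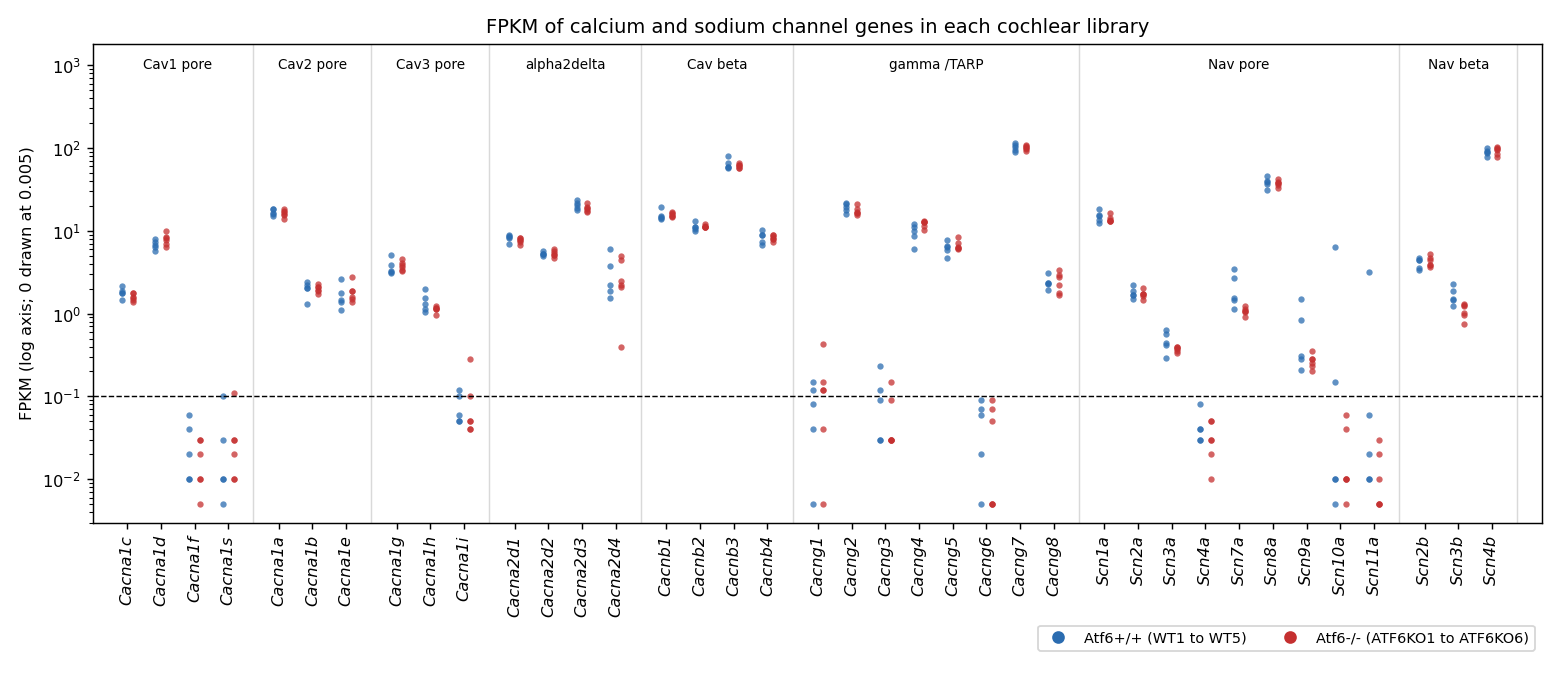
FPKM (log axis) of channel genes in the 5 *Atf6*+/+ (blue) and 6 *Atf6*-/- (red) libraries, 1 point per library, with values of 0 drawn at 0.005 and a dashed line at 0.1 FPKM. *Cacng7* and *Scn4b* lie near the top, several genes reach 0, and single points far above their group mark *Scn10a* and *Scn11a* in WT4.

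Among the pore subunits of sodium channels, *Scn8a* was the most abundant. It encodes the main pore of nodes of Ranvier and axon initial segments. Its level was 38.3, 39.99, 46.05, 36.3 and 31 FPKM in WT1 to WT5 and from 32.9 to 41.7 FPKM (median 37.7) in the 6 *Atf6*-/- libraries, with the groups overlapping over most of their range. The means were 38.3 ± 5.48 (SD, n = 5) and 37.4 ± 2.88 (SD, n = 6; log2 fold change -0.03, 95% interval -0.22 to 0.16, limma adjusted p = 0.932, exact permutation p = 0.719). *Scn1a*, another neuronal pore gene, followed at 12.3 to 18.2 FPKM. *Scn2a*, known from unmyelinated axons, was at 1.44 to 2.23 FPKM and *Scn3a*, known from developing neurons, at 0.29 to 0.63 FPKM. None of these 4 genes passed the unadjusted rule with all libraries.

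*Scn7a* (gene 20272) fell in *Atf6*-/- by the unadjusted rule. It encodes Nax, an atypical sodium channel of glia and other cells that senses extracellular sodium. It was at 1.13, 1.54, 3.45, 2.68 and 1.44 FPKM in WT1 to WT5 and from 0.92 to 1.25 FPKM (median 1.08) in the 6 *Atf6*-/- libraries. WT3 and WT4 were well above the remaining libraries, while WT1 lay inside the *Atf6*-/- range. The mean was 2.05 ± 0.979 FPKM in *Atf6*+/+ (SD, n = 5) and 1.09 ± 0.11 in *Atf6*-/- (SD, n = 6; log2 fold change -0.74, 95% interval -1.27 to -0.22, limma adjusted p = 0.400, exact permutation p = 0.00649). Neither the fit with the bone marrow score (log2 fold change -0.33) nor that without both WT3 and WT4 (-0.30) put *Scn7a* past the rule.

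Of the pore genes of peripheral sensory neurons, *Scn10a* and *Scn11a* rested on WT4. *Scn10a* encodes a tetrodotoxin-resistant channel of nociceptors. It was listed at 0.01, 0.01, 0.15, 6.44 and 0 FPKM in WT1 to WT5 and from 0 to 0.06 FPKM (median 0.01) in the 6 *Atf6*-/- libraries. *Scn11a*, a persistent-current channel of the same neurons, was listed at 0.01, 0.02, 0.06, 3.17 and 0.01 FPKM in WT1 to WT5 and from 0 to 0.03 FPKM (median 0.005) in the 6 *Atf6*-/- libraries. For both genes WT4 was the only library above 0.15 FPKM, and it held 97.4% of the summed *Scn10a* level of the 5 *Atf6*+/+ libraries and 96.9% of that of *Scn11a*. With all libraries the fold changes of *Scn10a* (-1.26, 95% interval -3.25 to 0.73) and *Scn11a* (-1.12, 95% interval -2.78 to 0.54) had intervals that included 0. Without WT4 both genes had a mean under 0.1 FPKM and were not tested.

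*Scn9a*, whose channel amplifies small depolarizations in nociceptors and sympathetic neurons, was at 0.28, 0.31, 0.83, 1.49 and 0.21 FPKM in WT1 to WT5 and from 0.2 to 0.35 FPKM (median 0.265) in the 6 *Atf6*-/- libraries. WT4 and then WT3 were the highest, and the other 3 *Atf6*+/+ libraries lay inside the *Atf6*-/- range. Its log2 fold change of -0.70 (limma adjusted p = 0.546) was -0.35 without WT4 and -0.01 without both WT3 and WT4. The part of somatosensory neurons in these values was not tested.

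The median log2 fold change of the 9 tested sodium channel pore genes was -0.51, beside -0.01 over all genes tested. *Scn10a* and *Scn11a* are among the 9 through their level in WT4 alone, so their direction was set by how they passed the filter and shows nothing about the group. Without WT4 the estimates of the 7 genes then tested were below 0, with a median of -0.27. Without both WT3 and WT4, 2 of 7 were above 0 and the median was -0.03. With the bone marrow score 4 of 9 were above 0 and the median was -0.08. Of the summed FPKM of the pore genes, *Scn8a* made up 66.6, 67.5, 64.02, 54.97 and 65.6% in WT1 to WT5 and from 66.4 to 69.2% in the 6 *Atf6*-/- libraries. The lowest share was that of WT4, where *Scn10a* and *Scn11a* added 9.75% and 4.80%.

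The β subunits of sodium channels are cell adhesion molecules that set gating and surface density. *Scn3b* (gene 235281) fell by the unadjusted rule. It was at 1.87, 1.46, 1.49, 2.29 and 1.25 FPKM in WT1 to WT5 and from 0.75 to 1.29 FPKM (median 1.12) in the 6 *Atf6*-/- libraries. WT4 was the highest, and of the *Atf6*+/+ libraries WT5 alone lay inside the *Atf6*-/- range. The mean was 1.67 ± 0.411 FPKM in *Atf6*+/+ (SD, n = 5) and 1.08 ± 0.21 in *Atf6*-/- (SD, n = 6; log2 fold change -0.57, 95% interval -0.95 to -0.19, limma adjusted p = 0.391, exact permutation p = 0.00649). Without WT4 its log2 fold change was -0.46, and with the bone marrow score it was -0.57. *Scn3b* passed the unadjusted rule under each of 21 alternatives, with limma adjusted p from 0.297 to 0.919.

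*Scn4b*, which links to the pore by a disulfide bond and is tied to resurgent current, was at 77.97 to 103 FPKM, and *Scn2b*, its disulfide-linked relative, at 3.37 to 5.22 FPKM. Neither passed the rule, and the median log2 fold change of the 4 β genes was -0.04, or 0.02 after rescaling to a common sum.

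**Figure D2:**
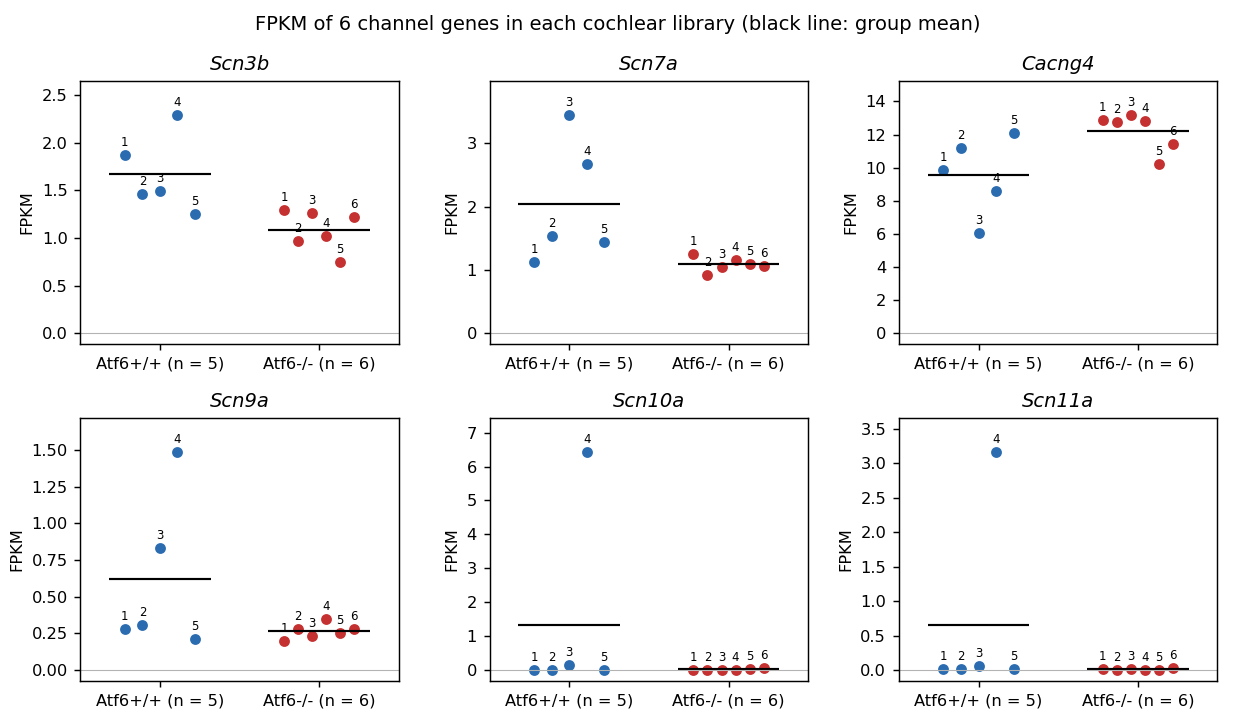
FPKM of *Scn3b*, *Scn7a*, *Cacng4*, *Scn9a*, *Scn10a* and *Scn11a* in each *Atf6*+/+ (blue) and *Atf6*-/- (red) library, numbered by replicate, with a black line at the group mean. WT4 alone carries *Scn10a* (6.44 FPKM) and *Scn11a* (3.17 FPKM), WT3 and WT4 carry the *Scn7a* mean, and WT3 has the lowest *Cacng4* level (6.04 FPKM).

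Among the L-type pore genes, *Cacna1d* was the most abundant. It was at 7.29, 8.01, 6.78, 5.73 and 6.39 FPKM in WT1 to WT5 and from 6.32 to 9.81 FPKM (median 7.96) in the 6 *Atf6*-/- libraries. WT4 had the lowest value and ATF6KO5 the highest, and the groups overlapped. The means of 6.84 ± 0.867 (SD, n = 5) and 7.89 ± 1.24 FPKM (SD, n = 6) did not differ beyond the spread (log2 fold change 0.20, 95% interval -0.05 to 0.45, limma adjusted p = 0.567, exact permutation p = 0.147). Without ATF6KO3 its log2 fold change was 0.26 and passed the unadjusted rule. WT4 also had the lowest hair cell marker sum of the libraries, a sum led by *Ocm* of outer hair cells. The markers did not all follow *Cacna1d*. In ATF6KO5 *Ocm* had its highest value (106 FPKM), while the hair cell marker *Otof* had its lowest *Atf6*-/- value (9.95 FPKM). The part of hair cells in the *Cacna1d* values was not tested.

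*Cacna1c*, the L-type pore of heart, smooth muscle and neurons, was at 1.75, 1.75, 1.89, 2.13 and 1.44 FPKM in WT1 to WT5 and from 1.37 to 1.78 FPKM (median 1.58) in the 6 *Atf6*-/- libraries. WT4 was the highest of the 11 and the groups overlapped. Its log2 fold change was -0.16 with all libraries (-0.41 to 0.09, limma adjusted p = 0.639) and -0.10 without WT4. By FPKM, *Cacna1d* made up 78.5 ± 3.64% of the L-type pore sum in *Atf6*+/+ (SD, n = 5) and 82.5 ± 3.24% in *Atf6*-/- (SD, n = 6), most of the rest being *Cacna1c*.

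*Cacna1a*, the P/Q-type pore of presynaptic terminals, led the neuronal Cav2 group. Its level was 16.1, 16.4, 18.5, 18.4 and 14.9 FPKM in WT1 to WT5 and from 13.8 to 18.5 FPKM (median 16.5) in the 6 *Atf6*-/- libraries. The ranges overlapped almost completely (log2 fold change -0.04, -0.22 to 0.13, limma adjusted p = 0.875). *Cacna1b*, the N-type pore, was at 1.31 to 2.41 FPKM, with WT5 the lowest of all libraries.

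*Cacna1e*, the R-type pore, was at 2.59, 1.79, 1.40, 1.11 and 1.45 FPKM in WT1 to WT5 and from 1.40 to 2.74 FPKM (median 1.74) in the 6 *Atf6*-/- libraries. ATF6KO4 and WT1 were the highest, and WT4 was the lowest. Its log2 fold change of 0.15 (-0.31 to 0.61, limma adjusted p = 0.829) was 0.03 without WT4, 0.03 without ATF6KO4, 0.315 without WT1 and -0.075 without both WT3 and WT4.

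The T-type genes encode low-voltage-activated pores. *Cacna1g* was the most abundant, at 3.21, 3.30, 3.10, 3.81 and 5.09 FPKM in WT1 to WT5 and from 3.31 to 4.52 FPKM (median 3.75) in the 6 *Atf6*-/- libraries. WT5 was the highest of all, and the groups overlapped (log2 fold change 0.05, -0.24 to 0.33, limma adjusted p = 0.922). *Cacna1h* was at 0.95 to 1.96 FPKM, highest in WT3 and lowest in ATF6KO3. No pore gene of the 7 tested for calcium channels passed the unadjusted rule.

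The α2δ subunits are extracellular glycoproteins that raise the number of channels at the membrane and act at synapses. *Cacna2d3* led them at 19.02, 20.2, 23.7, 21.8 and 17.99 FPKM in WT1 to WT5 and from 16.8 to 21.5 FPKM (median 18.5) in the 6 *Atf6*-/- libraries. WT3 and WT4 exceeded every *Atf6*-/- library, and the other *Atf6*+/+ libraries did not (log2 fold change -0.13, -0.31 to 0.04, limma adjusted p = 0.571). *Cacna2d1*, the α2δ form bound by gabapentin, was at 8.94, 8.17, 8.58, 7 and 8.38 FPKM in WT1 to WT5 and from 6.80 to 8.23 FPKM (median 7.79) in the 6 *Atf6*-/- libraries. The lowest *Atf6*+/+ value was that of WT4, which lay inside the *Atf6*-/- range as WT2 did. Its log2 fold change was -0.09 (-0.26 to 0.07) with all libraries and -0.15 without WT4, past the rule in the latter alone.

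*Cacna2d4*, best known from photoreceptors, varied most among the α2δ genes. It was at 6.04, 3.74, 1.87, 1.53 and 2.24 FPKM in WT1 to WT5 and from 0.39 to 4.92 FPKM (median 2.35) in the 6 *Atf6*-/- libraries. WT1, ATF6KO3 and ATF6KO4 were the highest, and ATF6KO5 was the lowest. Its log2 fold change was -0.29 (-1.47 to 0.88, limma adjusted p = 0.877), -0.49 without WT4, -0.01 without WT1 and 0.15 without ATF6KO5. *Cacna2d2*, the α2δ form whose loss gives the ducky mouse, stayed within 4.75 to 6.05 FPKM.

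The cytoplasmic β subunits, which bind the pore and carry it to the membrane, showed no gene past the rule with all libraries. *Cacnb3* was the most abundant, at 59.3, 58.9, 66.6, 78.9 and 57.5 FPKM in WT1 to WT5 and from 56.8 to 65.1 FPKM (median 60.99) in the 6 *Atf6*-/- libraries. WT4 exceeded all others, and WT5 and ATF6KO3 were the lowest. The means were 64.2 ± 8.91 (SD, n = 5) and 60.8 ± 3.16 FPKM (SD, n = 6), and the log2 fold change of -0.07 (-0.24 to 0.10, limma adjusted p = 0.773) turned to 0.01 without WT4.

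*Cacnb1*, the skeletal muscle β gene that neurons also use, was at 14.5, 13.98, 14.4, 19.3 and 14.9 FPKM in WT1 to WT5 and from 14.8 to 16.9 FPKM (median 15.5) in the 6 *Atf6*-/- libraries. WT4 again stood above all others, while the remaining *Atf6*+/+ values spanned less than 1 FPKM. With *Cacnb1* the log2 fold change was 0.03 (-0.14 to 0.21) with all libraries and 0.12 without WT4, past the rule in the latter alone. *Cacnb2*, the main β gene of inner hair cells, was at 11.1, 10.4, 13.1, 10.1 and 11.1 FPKM in WT1 to WT5 and from 11 to 12.2 FPKM (median 11.1) in the 6 *Atf6*-/- libraries. Here WT3 was the highest and WT4 the lowest, and the log2 fold change of 0.03 (-0.12 to 0.17) turned to -0.01 without WT4. *Cacnb4*, a neuronal β gene, was at 6.79 to 10.1 FPKM, with WT4 the lowest.

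In the γ and TARP group, *Cacng4* (gene 54377) rose by the unadjusted rule. It encodes a TARP, stargazin's relative γ-4. It was at 9.87, 11.2, 6.04, 8.61 and 12.1 FPKM in WT1 to WT5 and from 10.2 to 13.2 FPKM (median 12.8) in the 6 *Atf6*-/- libraries. WT3 and then WT4 were the lowest, while WT2 and WT5 lay inside the *Atf6*-/- range. The mean was 9.55 ± 2.36 FPKM in *Atf6*+/+ (SD, n = 5) and 12.2 ± 1.15 in *Atf6*-/- (SD, n = 6; log2 fold change 0.38, 95% interval 0.06 to 0.71, limma adjusted p = 0.462, exact permutation p = 0.0325). *Cacng4* did not pass the rule without WT4 (log2 fold change 0.36), with the bone marrow score (0.08) or without both WT3 and WT4 (0.14). It also did not pass with the replicate number as a block (0.40), and it passed at 0.23 without WT3. The oligodendrocyte list summed to 143, 139, 86.5, 158 and 155 FPKM in WT1 to WT5 and to 164, 232, 208, 203, 107 and 191 in ATF6KO1 to ATF6KO6. Like *Cacng4* this sum was lowest in WT3 and, among *Atf6*-/-, in ATF6KO5. Unlike *Cacng4*, which was next lowest in WT4, it was highest in WT4 among the *Atf6*+/+ libraries. The part of oligodendrocytes in the *Cacng4* difference was not tested.

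*Cacng7*, a type II TARP, was the most abundant γ gene, at 103, 94.4, 116, 109 and 88.7 FPKM in WT1 to WT5 and from 92.5 to 109 FPKM (median 101) in the 6 *Atf6*-/- libraries. WT3 was the highest and WT5 the lowest, and the log2 fold change was -0.02 (-0.17 to 0.14, limma adjusted p = 0.954), or 0.01 without WT4. *Cacng2*, the stargazin gene, was at 15.5 to 21.9 FPKM. *Cacng5*, the other type II TARP, was at 4.73 to 8.40 FPKM and *Cacng8*, a TARP like *Cacng2*, at 1.70 to 3.40 FPKM. None of these 4 passed the rule with all libraries.

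*Cacng1*, the γ subunit of the skeletal muscle channel, was tested at 0 to 0.43 FPKM, with the highest value in ATF6KO3, the library with the highest muscle markers. Without ATF6KO3 its mean was under 0.1 FPKM. *Cacna1s*, the skeletal muscle L-type pore, also had its highest value in ATF6KO3 (0.11 FPKM), with 0.1 FPKM in WT5. The muscle genes *Scn4a* and *Cacng6* did not. *Scn4a* was highest in WT4 (0.08 FPKM), and *Cacng6* was highest in WT5 and ATF6KO6 (0.09 FPKM). Muscle RNA as the source of these values was not tested.

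**Figure D3:**
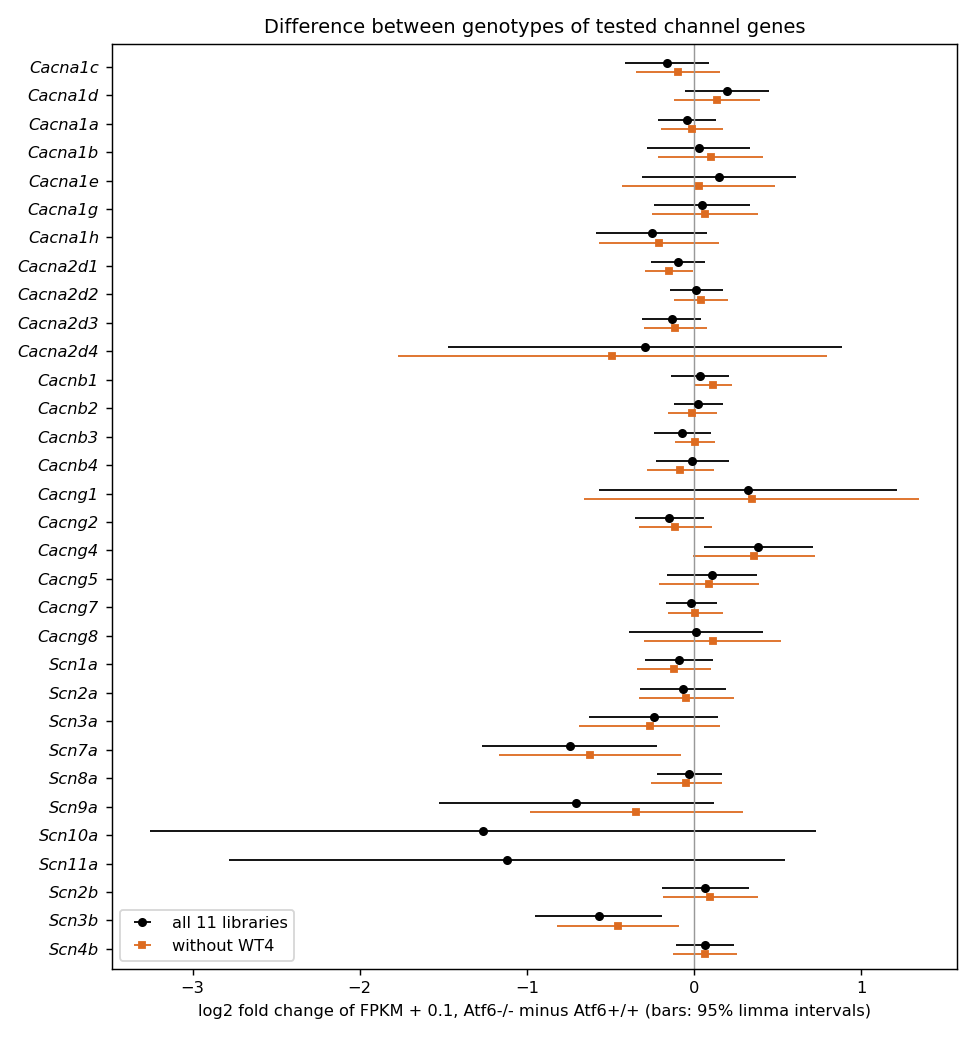
Log2 fold change of FPKM + 0.1 (*Atf6*-/- minus *Atf6*+/+) of tested channel genes with 95% limma intervals, with all 11 libraries (black circles) and without WT4 (orange squares). *Scn3b*, *Scn7a* and *Cacng4* have black intervals that leave out 0, and *Scn10a* and *Scn11a* have no orange point because their mean is then under 0.1 FPKM.

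Genes with a mean under 0.1 FPKM were not tested. They were *Cacna1f*, the L-type pore of photoreceptors (0 to 0.06 FPKM over the 11 libraries), *Cacna1s* (0 to 0.11 FPKM), the T-type pore gene *Cacna1i* (0.04 to 0.28 FPKM), the TARP gene *Cacng3* (0.03 to 0.23 FPKM), the muscle γ gene *Cacng6* (0 to 0.09 FPKM) and *Scn4a*, the skeletal muscle sodium channel (0.01 to 0.08 FPKM). The highest single values were those of *Cacna1i* in ATF6KO2 and *Cacng3* in WT2.

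Leaving out WT4 took the estimate to the other side of an unadjusted p of 0.05, changed its sign, moved a log2 fold change of at least 0.1 by over 1.5 times or put the mean under 0.1 FPKM for 14 of the 34 genes. The same count was 12 for WT3, 8 for WT5, 5 for WT1 and 3 for WT2. For ATF6KO1 to ATF6KO6 it was 1, 6, 7, 4, 2 and 2. Several of the sign changes were between values near 0. WT4 held the highest of the 11 values in 10 of the 40 genes, beside 2524 of all 16169 genes tested. The 10 include *Scn4a*, which was not tested, so these counts are over unlike sets. They also include *Scn10a* and *Scn11a*, which were tested through their level in WT4 alone. In *Scn10a* and *Scn11a* WT4 supplied over 50% of the *Atf6*+/+ sum.

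Several of these genes lie side by side. In the RefSeq annotation of GRCm38.p6, used for gene order only, *Scn10a* and *Scn11a* follow each other with 1 annotated gene between them, and *Scn3a*, *Scn2a*, *Scn1a*, *Scn9a* and *Scn7a* form another run with 1, 5, 3 and 1 between. *Scn10a* and *Scn11a* were high together in WT4. In the other run, *Scn9a* and *Scn7a* were highest in WT3 and WT4. WT3 was also the highest of the 11 libraries for *Scn1a* (18.2 FPKM), *Scn2a* (2.23 FPKM) and *Scn3a* (0.63 FPKM), while WT4 lay inside the range of the other libraries for these 3 genes. A high WT3 was not particular to this run. WT3 was the highest too for *Scn8a* (46.05 FPKM), *Cacng7* (116 FPKM) and the sum of the neuron list (4574.7 FPKM). *Cacng4* sits between *Cacng1* and *Cacng5*, with 0 and 1 genes between, and neither neighbour passed the rule.

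RefSeq promoter windows (250 bases before to 50 after the gene start, GRCm38.p6) were at hand for 30 of the 40 genes, as 41 windows. Letters known from ATF6 binding were searched on both strands. TGACGTGG was in 0 of the 41 and in 0.676% of all 32851 windows, TGACGTCA was in 0 and in 1.79%, and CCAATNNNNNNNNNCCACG was in 0 and in 0.119%. The shorter TGACG, which is part of the first and second of these, was in 6 of the 41 and in 20.8% of all windows. CCACG, the end of the longest and, on the other strand, of TGACGTGG, was in 14 of the 41 and in 32.8%, and CCAAT was in 10 and in 37.4%. The windows of *Scn10a* and *Scn11a*, which moved together, and of *Scn7a*, the only gene past the rule with a window, are given 5′ to 3′ with matches to the last 3 motifs on either strand in capitals. *Scn10a* (chr9:119718983-119719282, minus strand) held 3 matches to TGACG and 2 to CCACG, *Scn11a* (chr9:119825407-119825706, minus strand) held 0, and *Scn7a* (chr2:66784861-66785160, minus strand) held 1 match to CCACG. A match describes letters in the window and shows no binding.
Scn10a: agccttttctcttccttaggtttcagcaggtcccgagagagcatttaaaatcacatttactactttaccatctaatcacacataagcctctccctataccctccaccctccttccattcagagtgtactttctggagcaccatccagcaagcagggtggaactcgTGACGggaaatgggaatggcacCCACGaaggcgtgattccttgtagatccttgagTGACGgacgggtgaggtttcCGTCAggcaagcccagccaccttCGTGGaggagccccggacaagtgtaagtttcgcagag
Scn11a: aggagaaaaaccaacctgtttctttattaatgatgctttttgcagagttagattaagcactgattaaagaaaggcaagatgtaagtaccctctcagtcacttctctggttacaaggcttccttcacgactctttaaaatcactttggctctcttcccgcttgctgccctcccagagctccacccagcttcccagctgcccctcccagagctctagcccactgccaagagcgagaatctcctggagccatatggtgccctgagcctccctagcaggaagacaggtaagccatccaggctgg
Scn7a: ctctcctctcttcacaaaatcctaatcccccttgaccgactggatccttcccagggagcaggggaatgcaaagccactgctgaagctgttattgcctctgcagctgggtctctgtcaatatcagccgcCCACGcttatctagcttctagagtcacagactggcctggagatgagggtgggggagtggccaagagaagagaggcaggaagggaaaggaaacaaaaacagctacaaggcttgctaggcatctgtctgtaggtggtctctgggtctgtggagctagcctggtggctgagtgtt

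Of 31 genes for proteins that act with these channels, 29 were tested and 2 passed the unadjusted rule, both lower in *Atf6*-/-, beside 9.85% of all genes. *Calm3*, a calmodulin gene and the most abundant of the calcium sensor genes, was at 751, 701, 811, 827 and 747 FPKM in WT1 to WT5 and from 698 to 767 FPKM (median 728) in the 6 *Atf6*-/- libraries. The groups overlapped, and *Calm3* did not pass the rule (log2 fold change -0.07).

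*Fgf12*, an intracellular homologous factor that binds the tail of sodium channel pores, was the most abundant of its class and passed the rule. It was at 96.5, 77.9, 93.6, 81.1 and 61.4 FPKM in WT1 to WT5 and from 54.8 to 78.7 FPKM (median 65.8) in the 6 *Atf6*-/- libraries. WT2 and WT5 lay inside the *Atf6*-/- range (log2 fold change -0.29, -0.55 to -0.03, limma adjusted p = 0.475, exact permutation p = 0.0628). Its relative *Fgf13*, known from nociceptors, was at 12.8 FPKM in WT4 and between 1.56 and 5.31 in the others. When each library was rescaled to a common sum, 0 partner genes passed the rule, beside 11.3% of all genes, and the log2 fold change of *Fgf12* was -0.23. *Fgf12* also did not pass without WT1 (-0.23), WT3 (-0.24), WT4 (-0.29), ATF6KO1 (-0.27), ATF6KO5 (-0.24) or ATF6KO6 (-0.28), with the bone marrow score (-0.18) or without both WT3 and WT4 (-0.22).

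The leading genes of the other partner classes did not pass with all libraries. *Stac2*, an adaptor of L-type channels, was at 107, 109, 139, 126 and 106 FPKM in WT1 to WT5 and from 117 to 147 FPKM (median 126) in the 6 *Atf6*-/- libraries (log2 fold change 0.13). *Stac2* passed the rule, higher in *Atf6*-/-, without WT3 (0.19), with the bone marrow score (0.27) and without both WT3 and WT4 (0.25). *Ank2*, which encodes ankyrin-B and led the axonal anchors, was at 87.9, 94.9, 104, 79.3 and 75.2 FPKM in WT1 to WT5 and from 75.9 to 99.2 FPKM (median 87.6) in the 6 *Atf6*-/- libraries. For both genes the groups overlapped. *Rimbp2*, the RIM-binding protein that tethers channels at the active zone, was at 9.34, 9.37, 11.2, 8.88 and 8.20 FPKM in WT1 to WT5 and from 8.69 to 10.3 FPKM (median 9.64) in the 6 *Atf6*-/- libraries. *Unc80*, of the NALCN sodium leak channel, was at 18.96, 18.9, 21.8, 14.6 and 15.1 FPKM in WT1 to WT5 and from 14.3 to 18.8 FPKM (median 16.8) in the 6 *Atf6*-/- libraries. The groups of these genes overlapped too.

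*Ryr2*, a calcium release channel of the ER, was at 2.36, 2.25, 2.81, 2.04 and 1.68 FPKM in WT1 to WT5 and from 1.81 to 2.42 FPKM (median 2) in the 6 *Atf6*-/- libraries. *Rem1*, a GTPase that inhibits calcium channels, was at 2.11, 2.33, 1.52, 2.40 and 2.26 FPKM in WT1 to WT5 and from 1.18 to 2.66 FPKM (median 2.12) in the 6 *Atf6*-/- libraries. Neither differed beyond the spread (log2 fold changes -0.09 and -0.10, limma adjusted p = 0.832 and 0.886). *Cabp4* and *Ryr1* had means under 0.1 FPKM and were not tested. The median log2 fold change of the 29 partner genes was -0.05.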

How the data were processed

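The authors aligned the reads with HISAT2 2.0.4 to GRCm39 and made the FPKM values with RSEM before deposit, according to the deposited labels (RSEM 1.2.12; the methods state another version). Values of the 11 libraries were taken as deposited, with 2 decimals. Genes averaging 0.1 FPKM or more over the libraries were fitted with limma 3.58.1 (trend) on log2(FPKM + 0.1) with genotype alone, and p-values were adjusted by Benjamini-Hochberg over all 16169 genes. Single genes were also compared by the exact 2-sided permutation test of the difference of means over the 462 assignments of libraries to groups. The members and the lists of partner and marker genes were chosen with earlier results of these data known. Values in every library are given for genes past the unadjusted rule, the most abundant gene of each subfamily, *Scn3b*, *Cacnb1*, *Cacnb2* and *Cacnb3*, which the text of the study names, *Cacna1d* and genes whose result moved without WT4. Some genes of the rule and the lists are counted but not reported singly here. Subfamilies and lists are described by counts and medians. R 4.3.3, Python 3.11.15, numpy 2.4.6, pandas 2.3.3 and scipy 1.17.1 were used.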

Additional observations from a re-analysis of the deposited data

Results flagged for a closer look

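In 7 of 64 groups of libraries, a single value lay far from the others of its group by Dixon's criterion. Chance meets this in about 1 of 20 groups, and over all genes tested it was met in 7.01% of groups. The values of *Scn10a*, *Scn11a* and *Cacng1* belong to genes that reached a mean of 0.1 FPKM through that library alone, so the filter favoured them. Among channel genes that reach this mean with any 1 library left out it was 4 of 58 groups, or 6.9%, beside 6.78% over all such genes. That share is near that of all genes and is no result about channel genes. *Scn10a* was at 6.44 FPKM in WT4 and from 0 to 0.15 in the other *Atf6*+/+ libraries. *Scn11a* was at 3.17 FPKM in WT4 and from 0.01 to 0.06 in the others of its group. *Cacnb1* was at 19.29 FPKM in WT4 against 13.98 to 14.92. In ATF6KO3, *Cacng1* was at 0.43 FPKM against 0 to 0.15 in the other *Atf6*-/- libraries, and *Cacna1h* was at 0.95 FPKM against 1.14 to 1.24. *Scn1a* was at 16.3 FPKM in ATF6KO2 against 13.06 to 14.2, and *Cacna1e* was at 2.74 FPKM in ATF6KO4 against 1.4 to 1.88. The causes of these values were not tested.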

How the results depend on the processing

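The 3 channel genes past the unadjusted limma rule became 1 with the bone marrow score and 1 without both WT3 and WT4, an alternative chosen after seeing the data, and 3 to 8 when each library was left out in turn. The share of all genes past the rule, 9.85%, was 5.37% with the bone marrow score, 6.21% without both WT3 and WT4 and 7.4 to 11.5% when each library was left out. With an adjusted p the count was 0 under every alternative run. The 0 genes without overlap became 0 to 2 when each library was left out in turn, while the share over all genes, 1.25%, became 1.52 to 2.3%. The 2 partner genes past the rule became 0 after rescaling to a common sum (11.3% of all genes), 1 with the bone marrow score (*Stac2*) and 1 to 4 when each library was left out. The median log2 fold change of the Cav3 pore genes, -0.103, was 0.047 with no filter. That of the sodium channel pore genes, -0.51, was -0.079 with the bone marrow score, -0.03 without both WT3 and WT4, -0.077 with a mean of at least 1 FPKM, -0.786 with 0.01 and -0.119 with 1 added before taking logarithms, and lay between -0.658 (without ATF6KO replicate 5) and -0.266 (without WT replicate 4) when each library was left out. The other subfamily medians moved by less than the spread between libraries. Of 703 single-gene values of channel genes under the alternatives, 6 were no longer past the threshold, 13 were newly past it and 11 others moved by more than that spread. Of the same 703 values, 47 had another sign than with all libraries, and 0 of these reversed a call. With the replicate number as a replicate block, 2 of 34 channel genes passed the rule (*Scn7a* and *Scn3b*), or 5.88% beside 6.67% of all genes. In that fit 3 partner genes passed it. Libraries of the same number did not resemble each other (correlations of their deviations from the group mean of 0.0950, -0.122, -0.210, 0.119 and -0.0395). The causes of these shifts were not tested. Depth limits the values near 0.1 FPKM to an unknown degree, since read counts were not analysed here.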
